A study of Mus musculus with 6 samples.

Results

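Metalloproteinases of the MMP, ADAM and ADAMTS families and their inhibitors were followed in breast tumours of FVB mice. The members were taken by gene symbol: every probe of the bead array annotated to an Mmp gene with a number, to an Adam, Adamts or Adamtsl gene, to Timp1, Timp2, Timp3 or Timp4, or to Reck. This gave 156 of 45279 probes, for 79 of 19057 named genes. Testing was limited to probes that 3 or more of the 6 arrays detected above background, with a detection p below 0.05. That left 42 member probes for 32 genes, of 15885 probes for 9354 named genes in all.

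There were 3 control tumours (Cyp27b1 flox/flox;Cre-) and 3 knockout tumours (Cyp27b1 flox/flox;Cre+), with 1 array each. Both groups share the floxed Cyp27b1 alleles and the FVB background. Cyp27b1 encodes the enzyme that activates vitamin D, and the study asks what its loss in mammary epithelium does to breast cancer. The controls lack Cre, so loss of Cyp27b1 and presence of Cre cannot be told apart. The promoter that drives Cre, the ages of the mice and the cause of the tumours are not stated in the labels. No label ties a tumour to an animal, so p-values measure only the spread between these samples, which may be technical.

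MMPs are zinc enzymes that cut collagens, basement membrane and other matrix proteins. Most are secreted as inactive proenzymes, and a group of them is anchored in the cell membrane. ADAMs are membrane proteins of which many shed the outer parts of growth factors and receptors, while some have lost the zinc site and act in adhesion. ADAMTS enzymes are secreted and cut proteoglycans, procollagens and other matrix proteins. TIMPs bind and block the active site of these enzymes, and Reck is a membrane-anchored inhibitor of several MMPs. In mammary tumours, many MMPs are made by fibroblasts, macrophages and other stromal cells rather than by the epithelium.

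Facts of the whole array set the frame. The summed signal of an array was 1.07e7 to 1.34e7 in the control and 1.23e7 to 1.48e7 in the knockout tumours, and between 33.4% and 36.1% of probes were above background. The targeted gene, Cyp27b1, had 1 probe, with normalized log2 values of 4.29, 4.33 and 4.40 in the control and 4.39, 4.29 and 4.41 in the knockout tumours. It was above background on 0 of 6 arrays, so it checks nothing about the deletion. Of 10 markers of luminal mammary epithelium, 9 were kept, Krt8 and Krt18 among them, and Epcam was not. All levels below are normalized log2 signals of 1 probe per gene, the kept probe with the highest mean, and levels of different genes are not compared.

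Where a difference was called, it was a fall in the knockout tumours for all members but Adam17. In limma, 8 of the 32 kept member genes fell (adjusted p below 0.05) and 1 rose, and 23 were not called. Over all 9354 kept genes the called shares were 5.63% lower, 4.47% higher and 10.1% in either direction. By probe, 10 of 42 were called, where the shares over all kept probes were 9.20% called, 5.06% lower and 4.14% higher. The genes that fell were Adam23, Adamts12, Mmp23, Mmp2, Timp1, Mmp17, Adamts6 and Mmp24, and Adam17 rose. The median log2 difference over the kept members was -0.98, where it was 0.05 over all kept genes. The groups did not overlap for 14 of the 32 members, 13 of them lower and 1 higher in the knockout tumours, where the shares over all kept genes were 32.1% without overlap, 14.9% lower and 17.2% higher. Mmp17 and Adamts6 are among the 8 that fell and the 13 lower without overlap. They passed the filter through the control tumours alone and so had to differ. All these counts describe members that were chosen with results of these tumours known, and they carry no test of the family as a whole. Leaving out 1 tumour changed the count of called members from 9 to 3 without control 1, 5 without control 3 and 4 without knockout 2.

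**Figure D1:**
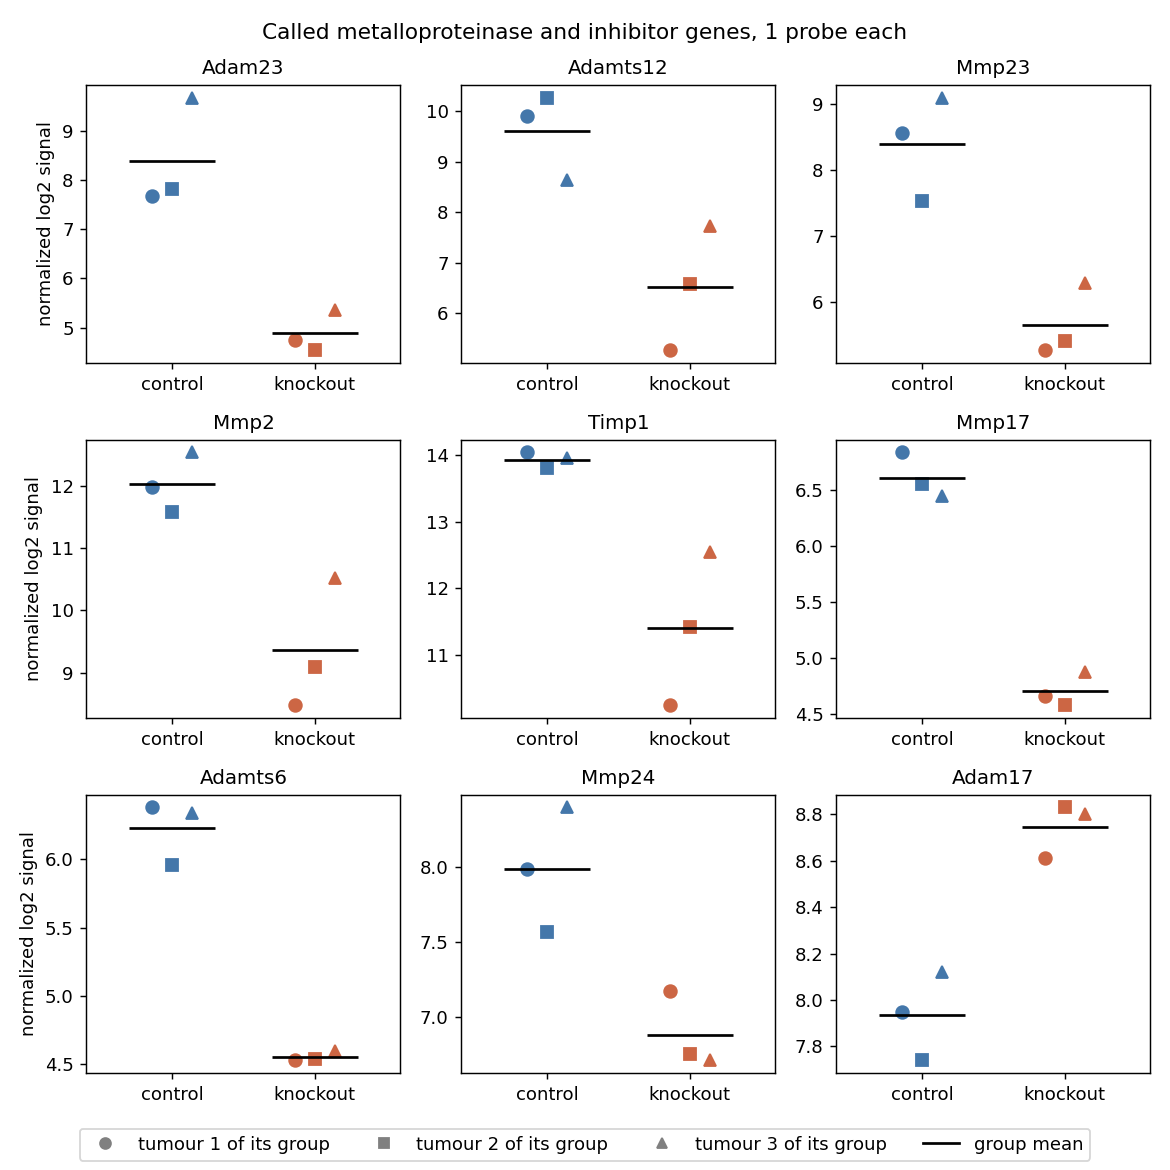
Normalized log2 signal of the 9 called genes in each tumour (vertical axes, each panel with its own scale), with the group mean as a line and a symbol for each of 3 control and 3 knockout tumours. The knockout tumours lie below all control tumours in 8 panels and above them for Adam17.

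Of 21 MMP genes 12 were kept (median log2 difference -1.65, or -1.55 with Mmp17 at its bound). Of these 4 were called lower, where 5.63% of all kept genes were, and Mmp17 among the 4 passed the filter through the control tumours alone. All 12 had a lower mean in the knockout tumours, as did 4282 of all 9354 kept genes. That direction held in all 12 under each of the other scalings, and in 11 of 12 without knockout 1, where Mmp13 turned. Of 32 ADAM genes 6 were kept (median -0.56), with 1 called lower and 1 called higher. Of 17 ADAMTS genes 8 were kept (median -0.51), with 2 called lower. Of 4 ADAMTS-like genes 2 were kept and 0 were called, and an unadjusted p below 0.05 was reached by 17 of all 32 kept members, where the share over all kept genes was 26.5%. Of the 5 inhibitors 4 were kept (median -0.02), with Timp1 called lower.

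**Figure D2:**
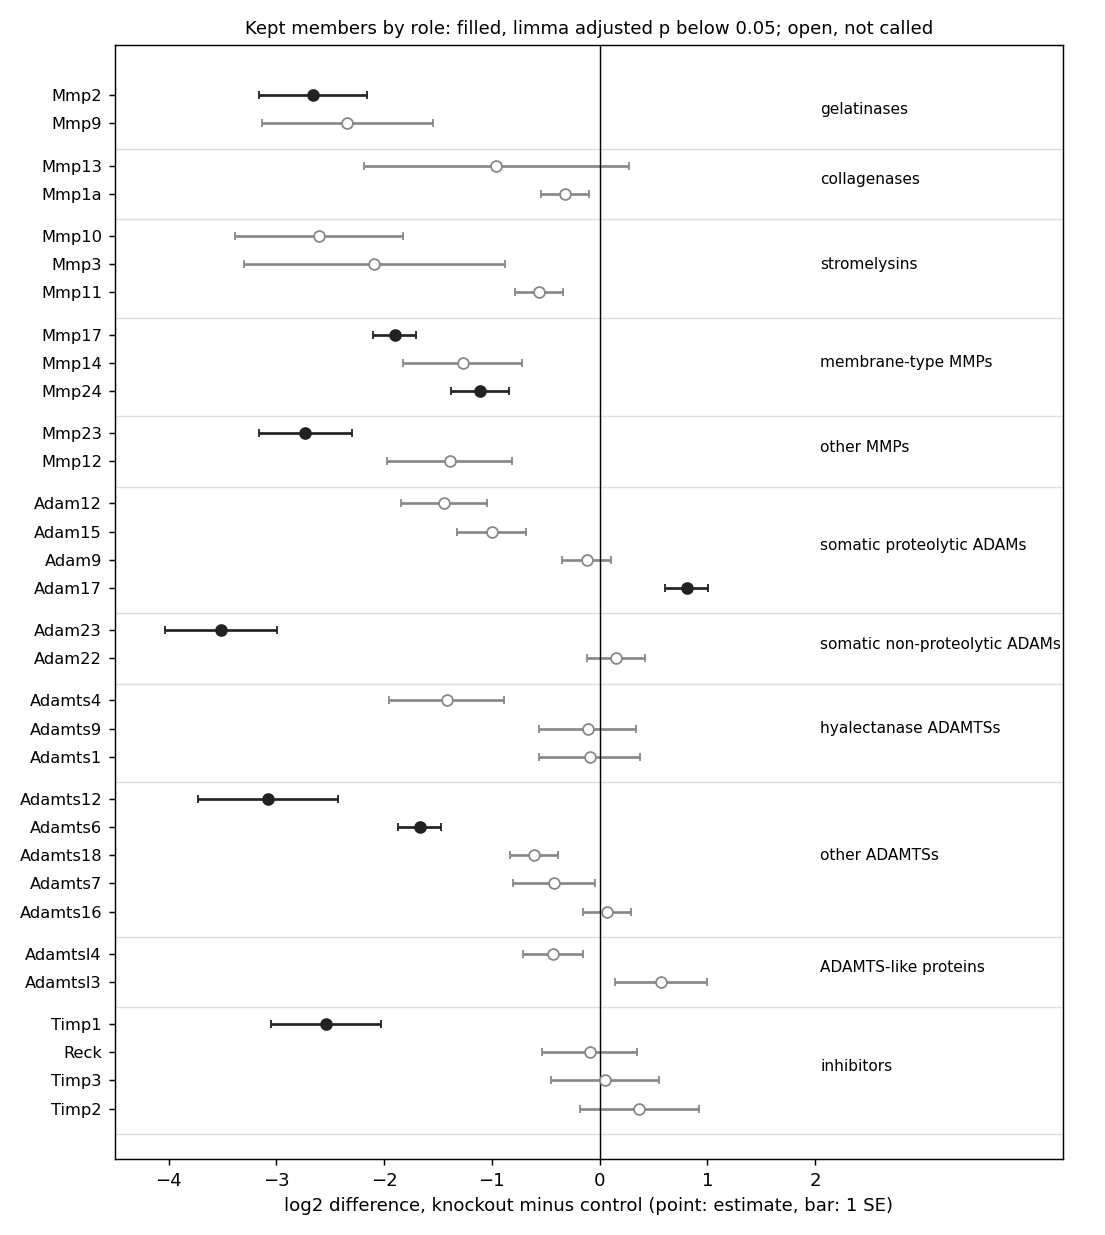
Log2 difference (knockout minus control, horizontal axis) of the 32 kept members with 1 SE, grouped by role; filled points passed an adjusted p of 0.05 in limma. The 12 MMPs all lie left of 0, and Adam17 is the only filled point to the right of it.

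The gelatinases Mmp2 and Mmp9 cut denatured collagen and the type IV collagen of basement membranes. Mmp2, which fibroblasts make in many tissues, had log2 signals of 11.98, 11.57 and 12.53 in control tumours 1, 2 and 3 and of 8.48, 9.10 and 10.52 in knockout tumours 1, 2 and 3. Every knockout tumour lay below every control tumour, with knockout 3 nearest to them. Mmp2 fell by 2.66 on the log2 scale (SE 0.50, 6.33-fold, adjusted p = 0.019). Mmp9, which neutrophils and macrophages are known to carry, had log2 signals of 7.81, 10.18 and 8.83 in the control and of 4.99, 7.0 and 7.82 in the knockout tumours. Knockout 3 lay just above control 1, so the groups overlapped. The log2 difference of -2.34 ± 0.79 (SE) was not called (adjusted p = 0.11). The call of Mmp2 was lost without control 1 (adjusted p = 0.073), control 3 (0.066) or knockout 2 (0.071) and without the filter on dim probes (0.090), range over the alternatives 0.0040 to 0.090.

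Of the membrane-anchored MMPs, Mmp14, Mmp17 and Mmp24 were kept. Mmp14, the main activator of the Mmp2 proenzyme and itself a collagenase, had log2 signals of 12.33, 11.64 and 11.82 in the control and of 9.30, 11.02 and 11.66 in the knockout tumours. Knockout 1 lay far below the rest, and knockout 3 lay above control 2. Its log2 difference of -1.27 ± 0.55 (SE) was not called (adjusted p = 0.20), and it was -0.59 without knockout 1. Mmp17, which is held in the membrane by a lipid anchor, had log2 signals of 6.83, 6.55 and 6.44 in the control and of 4.66, 4.58 and 4.88 in the knockout tumours. It was above background on 3 of 3 control and 0 of 3 knockout arrays, so it passed the filter through the control tumours alone. It was at least 3.24-fold lower in the knockout tumours (adjusted p = 0.0034), and having passed in that way it had to differ, so its p is a description. Mmp24, best known from the nervous system, had log2 signals of 7.99, 7.57 and 8.40 in the control and of 7.17, 6.75 and 6.71 in the knockout tumours. The groups did not overlap, and it fell by 1.11 on the log2 scale (SE 0.27, 2.16-fold, adjusted p = 0.040).

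The fall of Mmp24 rests on 1 of its 3 kept probes. The other probes had log2 differences of -0.15 and 0.28, neither called. The call was also lost without control 1 (adjusted p = 0.13), control 3 (0.11), knockout 2 (0.13) or knockout 3 (0.11), with the authors' values (0.070), without background correction (0.051) and without the filter (0.10), range over the alternatives 0.019 to 0.13. Mmp16, also of this group, was above background on too few arrays to be kept, and Mmp25 on none.

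Mmp23 is an unusual MMP that lacks the hemopexin domain of most of the family and has an amino-terminal membrane anchor. Its log2 signals were 8.55, 7.53 and 9.09 in the control and 5.27, 5.41 and 6.29 in the knockout tumours. All knockout values lay more than 1 log2 unit below the lowest control value. Mmp23 fell by 2.73 on the log2 scale (SE 0.43, 6.63-fold, adjusted p = 0.010). The call was lost without control 1 (adjusted p = 0.053) and without the filter (0.056), range over the alternatives 0.0062 to 0.056. Mmp23 overlaps Mib2 in GRCm38.p6, whose kept probe had a log2 difference of 0.04 (adjusted p = 0.95).

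A run of MMP genes lies side by side on mouse chromosome 9, where GRCm38.p6 places 9 of the members between Mmp13 and Mmp7. In chromosomal order the kept ones were Mmp13, Mmp12, Mmp3, Mmp1a and Mmp10, and Mmp1b, Mmp8, Mmp20 and Mmp7 were not kept. Several of these genes are textbook targets of AP-1, the Fos and Jun transcription factor, which binds the sequence TGAGTCA. The 100 bases before the annotated start of the kept genes are shown because all 5 hold that sequence there. RefSeq gives them in GRCm38.p6 on the forward strand, 5′ to 3′, and capitals mark TGAGTCA or its reverse complement.
Mmp13, chr9:7272414-7272513: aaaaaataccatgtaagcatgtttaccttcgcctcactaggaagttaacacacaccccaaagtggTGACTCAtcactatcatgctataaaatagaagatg
Mmp12, chr9:7347274-7347373: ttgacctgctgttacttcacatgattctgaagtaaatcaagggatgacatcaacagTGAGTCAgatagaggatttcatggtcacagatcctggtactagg
Mmp3, chr9:7445722-7445821: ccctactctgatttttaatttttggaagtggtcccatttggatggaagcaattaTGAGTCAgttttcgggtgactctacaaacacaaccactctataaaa
Mmp1a, chr9:7464041-7464140: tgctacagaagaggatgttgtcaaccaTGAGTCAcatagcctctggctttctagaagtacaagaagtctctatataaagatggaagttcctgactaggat
Mmp10, chr9:7502242-7502341: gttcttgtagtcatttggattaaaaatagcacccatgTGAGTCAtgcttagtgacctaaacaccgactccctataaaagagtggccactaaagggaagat

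The element began 35 bases before the start in Mmp13, 44 in Mmp12, 46 in Mmp3, 73 in Mmp1a and 63 in Mmp10. For Mmp12 the table lists 2 starts, and 1 of them has the element. Both strands were searched for TGAGTCA over 250 bases before to 50 after each start, and 5.20% of all 32851 promoters hold it. Counted by gene, with any of its starts, 5.95% of 27025 genes hold it. Within the last 100 bases before the start the share of promoters is 1.88%. Of 23 kept members with a promoter in the table, 5 hold it, all of them in this run of genes, and of the 6 called members with a promoter 0 do. A match is a description of the sequence, not evidence of binding in these tumours.

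None of the 5 kept genes of this run was called in limma. Mmp10, a stromelysin that cuts proteoglycans and activates other MMPs, had log2 signals of 8.90, 9.42 and 10.44 in the control and of 5.52, 6.64 and 8.79 in the knockout tumours. The groups did not overlap, but the knockout tumours were spread over more than 3 log2 units. The log2 difference was -2.60 ± 0.78 (SE, adjusted p = 0.079), and it passed without knockout 3 (-3.51, adjusted p = 0.011, range over the alternatives 0.011 to 0.27). Mmp3, the closely related stromelysin that promotes mammary tumours when overexpressed in mice, had log2 signals of 9.31, 9.66 and 12.96 in the control and of 6.63, 8.27 and 10.77 in the knockout tumours. Control 3 and knockout 3 were each the highest of their group, and knockout 3 lay above controls 1 and 2. The log2 difference of -2.09 ± 1.21 (SE) was not called (adjusted p = 0.34), and the 3 kept probes gave -2.16 to -2.01. It was -0.93 without control 3, -1.13 without knockout 1 and -3.19 without knockout 3.

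Mmp13, the main interstitial collagenase of rodents, had log2 signals of 8.43, 11.99 and 9.93 in the control and of 6.95, 8.87 and 11.65 in the knockout tumours. Control 2 and knockout 3 were high, and both groups covered much the same range. The log2 difference of -0.96 ± 1.23 (SE) was not called (adjusted p = 0.71), and it was 0.14 without knockout 1, -0.03 without control 2, -1.80 without control 1 and -2.21 without knockout 3. Mmp12, the elastase of macrophages, had log2 signals of 5.37, 7.87 and 6.22 in the control and of 5.28, 4.61 and 5.39 in the knockout tumours. Control 2 stood out here too, as it did for the macrophage gene Lyz2, with log2 signals of 8.42, 11.71 and 9.12 in the control and of 6.07, 7.97 and 8.95 in the knockout tumours. It was the highest but did not stand apart for the other kept macrophage marker, Csf1r (5.68, 6.53 and 6.16 in the control tumours). A link between Mmp12 and these genes was not tested. Mmp12 had a log2 difference of -1.39 ± 0.58 (SE, adjusted p = 0.19). The collagenase Mmp1a, with log2 signals of 5.52, 5.38 and 5.43 in the control and of 4.84, 5.02 and 5.50 in the knockout tumours, lay close to background and had a log2 difference of -0.32 (adjusted p = 0.44). Mmp1a and Mmp1b are close copies that probes may not tell apart. Of 5 kept genes of AP-1 factors (Fos, Fosl2, Jun, Junb and Jund) 0 were called, with log2 differences from -0.47 to 1.09.

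**Figure D3:**
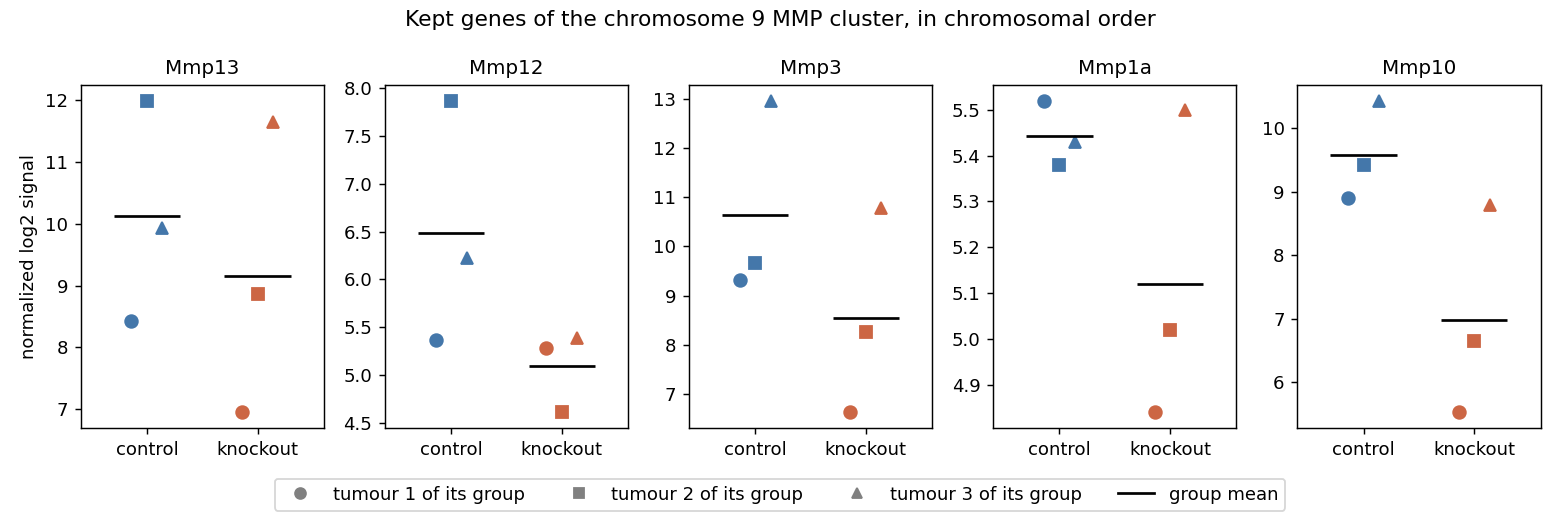
Normalized log2 signal (vertical axes, each panel with its own scale) of the 5 kept MMP genes of chromosome 9 in each of 3 control and 3 knockout tumours, with the group mean as a line. Knockout 3 is the highest knockout tumour in all 5 panels, and the groups are apart only for Mmp10.

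Mmp11, the stromelysin that stromal fibroblasts of breast cancers are known to make, lies on another chromosome. Its log2 signals of 6.64, 6.75 and 6.69 in the control and of 6.08, 5.83 and 6.50 in the knockout tumours did not overlap. The log2 difference was -0.56 ± 0.22 (SE) and was not called (adjusted p = 0.17).

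Adam17 was the 1 member that rose. It is the sheddase that releases tumour necrosis factor and several ligands of the epidermal growth factor receptor. The log2 signals were 7.95, 7.74 and 8.12 in the control and 8.61, 8.83 and 8.80 in the knockout tumours. All 3 knockout tumours lay above all 3 control tumours. Adam17 rose by 0.81 ± 0.20 log2 units (SE, 1.75-fold, adjusted p = 0.042). The call was lost whichever tumour was left out, with adjusted p-values of 0.13, 0.11 and 0.065 without control 1, 2 and 3 and of 0.051, 0.14 and 0.11 without knockout 1, 2 and 3. It was also lost with cyclic loess (0.052), range over the alternatives 0.017 to 0.14. Adam17 overlaps Iah1 in GRCm38.p6, whose 2 kept probes had log2 differences of -0.57 and -0.10, neither called.

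The other proteolytic ADAMs of body tissues were not called. Adam12, which is abundant in cells of mesenchymal origin, had log2 signals of 6.64, 7.12 and 6.91 in the control and of 4.64, 5.37 and 6.33 in the knockout tumours. The groups did not overlap, and the log2 difference was -1.44 ± 0.40 (SE, adjusted p = 0.064). Adam15, with log2 signals of 10.09, 8.96 and 10.04 in the control and of 8.88, 8.60 and 8.60 in the knockout tumours, had a log2 difference of -1.0 ± 0.32 (SE, adjusted p = 0.099) and 0.13 by its other kept probe. Adam9 had a log2 difference of -0.12 (adjusted p = 0.81). Adam10, the sheddase of Notch receptors and cadherins, was above background on 0 arrays by both of its probes, as was Adam33. Adam8 and Adam28 were above background on too few arrays to be kept.

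Adam23 is an ADAM without a working zinc site that takes part in cell adhesion and in nerve cells binds secreted ligands. Its log2 signals were 7.67, 7.82 and 9.67 in the control and 4.75, 4.54 and 5.36 in the knockout tumours. Control 3 was the highest, and the knockout tumours lay at or near background, with 1 of 3 above it. Adam23 fell (log2 difference -3.51 ± 0.52 SE, adjusted p = 0.0084), and since its knockout mean of 4.88 lay below the lowest signal of probes above background (4.90 to 4.92 on the knockout arrays), no fold is given. The call was lost with the authors' values (log2 difference -1.42, adjusted p = 0.083, range over the alternatives 0.0052 to 0.083). Adam22, the near relative of Adam23, lay close to background in all tumours (4.58 to 5.51) with a log2 difference of 0.15 (adjusted p = 0.80), and Adam11 was not kept.

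Of the 21 remaining ADAM genes, most of them known from testis and epididymis, 0 were kept. They were Adam18, Adam1b, Adam2, Adam20, Adam21, Adam24, Adam25, Adam26a, Adam26b, Adam29, Adam3, Adam30, Adam32, Adam34, Adam34l, Adam39, Adam4, Adam5, Adam6a, Adam6b and Adam7. No direction is given for them.

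Among the ADAMTS enzymes, Adamts12 and Adamts6 fell. Adamts12, which cuts cartilage oligomeric matrix protein, had log2 signals of 9.90, 10.27 and 8.63 in the control and of 5.26, 6.58 and 7.73 in the knockout tumours. The groups lay apart, and knockout 3 came within 1 log2 unit of control 3. It fell by 3.08 on the log2 scale (SE 0.65, 8.44-fold, adjusted p = 0.026), while its other kept probe, near background, gave -0.41 and was not called. The call was lost without control 1 (adjusted p = 0.10), control 2 (0.074) or knockout 2 (0.080), with the authors' values (0.053) and without the filter (0.12), range over the alternatives 0.012 to 0.12. Adamts6, which has been tied to fibrillin microfibrils, had log2 signals of 6.38, 5.96 and 6.34 in the control and of 4.53, 4.54 and 4.60 in the knockout tumours. It was above background on 3 of 3 control and 0 of 3 knockout arrays, and so passed the filter through the control tumours alone. The knockout level was lower by a factor of at least 2.49 (adjusted p = 0.0041), again as a description, for the reason given for Mmp17.

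The enzymes that cut the large proteoglycans aggrecan and versican were not called. Adamts4 had log2 signals of 9.13, 9.60 and 8.01 in the control and of 6.53, 7.61 and 8.33 in the knockout tumours, where knockout 3 lay above control 3. Its log2 difference was -1.42 ± 0.53 (SE, adjusted p = 0.14), and it was -0.94 without knockout 1. Adamts1, with log2 signals of 6.07, 7.14 and 7.49 in the control and of 7.64, 6.59 and 6.19 in the knockout tumours, covered the same range in both groups (log2 difference -0.09 ± 0.47 SE, adjusted p = 0.94). Adamts9 gave -0.11 (adjusted p = 0.91). Versican itself, Vcan, had a log2 difference of -0.33 (adjusted p = 0.62). Of the other kept ADAMTS genes, Adamts18 (-0.61), Adamts7 (-0.42) and Adamts16 (0.07) were not called. The ADAMTS-like proteins, which lack the protease domain and bind matrix fibres, were not called either. Adamtsl4 had log2 signals of 6.77, 7.06 and 7.13 in the control and of 7.03, 6.58 and 6.05 in the knockout tumours (log2 difference -0.43 ± 0.28 SE, adjusted p = 0.39), and Adamtsl3 gave 0.57 (adjusted p = 0.47). Adamts3 and Adamts14, which trim procollagens, were not above background on any array.

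Of the inhibitors, Timp1 fell and Timp2, Timp3 and Reck were not called. Timp1, a secreted inhibitor of most MMPs that is readily induced in stromal cells, had log2 signals of 14.04, 13.81 and 13.95 in the control and of 10.24, 11.41 and 12.54 in the knockout tumours. The control tumours lay within 0.3 log2 units of each other, while the knockout tumours were spread over more than 2 units and all lay below them. It fell by 2.54 on the log2 scale (SE 0.51, 5.80-fold, adjusted p = 0.022), and its second probe fell by 2.45. The call was lost without control 1 (adjusted p = 0.089), control 2 (0.053), control 3 (0.070) or knockout 2 (0.073) and without the filter (0.10), range over the alternatives 0.0050 to 0.10. Timp1 lies wholly inside Syn1 in GRCm38.p6, and the 2 kept probes of Syn1 also fell, with log2 differences of -2.03 and -1.26 (adjusted p = 0.024 and 0.032). Whether these probes read RNA from 1 gene or both was not tested.

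Timp2, which also takes part in the activation of Mmp2 by Mmp14, had log2 signals of 11.25, 11.42 and 12.07 in the control and of 13.29, 11 and 11.55 in the knockout tumours. Timp3, the inhibitor that binds to the matrix and blocks Adam17 and the aggrecan-cutting ADAMTS enzymes, had log2 signals of 11.71, 11.95 and 11.66 in the control and of 13.14, 11.14 and 11.20 in the knockout tumours. Both genes were highest in knockout 1, the tumour in which Timp1, Mmp2 and Mmp14 were lowest. Their log2 differences of 0.37 ± 0.55 and 0.05 ± 0.50 (SE) were not called (adjusted p = 0.75 and 0.97), and they were -0.31 and -0.61 without knockout 1. Reck had log2 signals of 6.47, 5.97 and 7.79 in the control and of 6.87, 6.79 and 6.31 in the knockout tumours, a log2 difference of -0.09 ± 0.44 (SE, adjusted p = 0.94) that was 0.44 without control 3. Timp4 was above background on 0 arrays.

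The knockout tumours differed among themselves in a repeated way. Knockout 1 was the lowest and knockout 3 the highest knockout tumour for 14 of the 32 kept members (43.8%) and for 8 of the 12 MMPs (66.7%), where the share was 18.2% over all kept genes. Among the 20 kept members other than MMPs the order held for 6 (30.0%). Markers of fibroblasts and matrix showed this order for 8 of 10 genes, and luminal markers for 0 of 9. The order was not particular to fibroblast markers. The kept macrophage markers Csf1r and Lyz2 showed it, as did the neutrophil markers Camp and S100a9 but not S100a8. Of the basal and myoepithelial markers, Krt5, Trp63 and Acta2 showed it, and Krt14, Krt17 and Myh11 did not. The mean log2 signal over the 12 MMPs was 8.30, 8.84 and 9.07 in the control and 6.27, 6.92 and 8.04 in the knockout tumours. That of 10 kept fibroblast and matrix markers was 8.88, 8.40 and 10.09 in the control and 5.38, 6.72 and 7.51 in the knockout tumours. The summed normalized signal of those markers was 14100 to 25600 in the control and 570 to 5260 in the knockout tumours, and 5 of the 10 fell, with Fap not above background on enough arrays to be kept. Smooth muscle and pericyte markers, 5 of 7 of which fell, summed to 32000 to 33300 and 2040 to 10900, most of it Acta2. Of the 5, Rgs5 passed the filter through the control tumours alone, so its call is a description. Notch3 had a higher mean in the knockout tumours (log2 difference 0.95, adjusted p = 0.20). Acta2 and Myh11 were also listed as myoepithelial markers. Of 6 kept basal and myoepithelial markers, Acta2 and Myh11 fell, Krt14 rose and 3 were not called (median 0.01). Luminal markers, 4 of 9 of which rose, summed to 5190 to 12100 and 12600 to 27000. To set beside these marker counts, 5.63% of all kept genes were called lower and 4.47% higher.

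In these bulk samples, fewer cells of a type and less RNA per cell cannot be told apart, and the part of these markers in the members' falls was not tested. Of the 9 macrophage markers, 7 had a probe and 2 were kept, Csf1r and Lyz2. Their summed signal, most of it from the Lyz2 probe, was 394 to 3440 in the control and 101 to 551 in the knockout tumours, and 0 were called. The 3 kept neutrophil markers, Camp, S100a8 and S100a9, summed to 1060 to 4660 and 658 to 23900, with 0 called. Most of each sum came from the S100a8 probe. Mmp8, the neutrophil collagenase, was above background on 0 arrays.

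**Figure D4:**
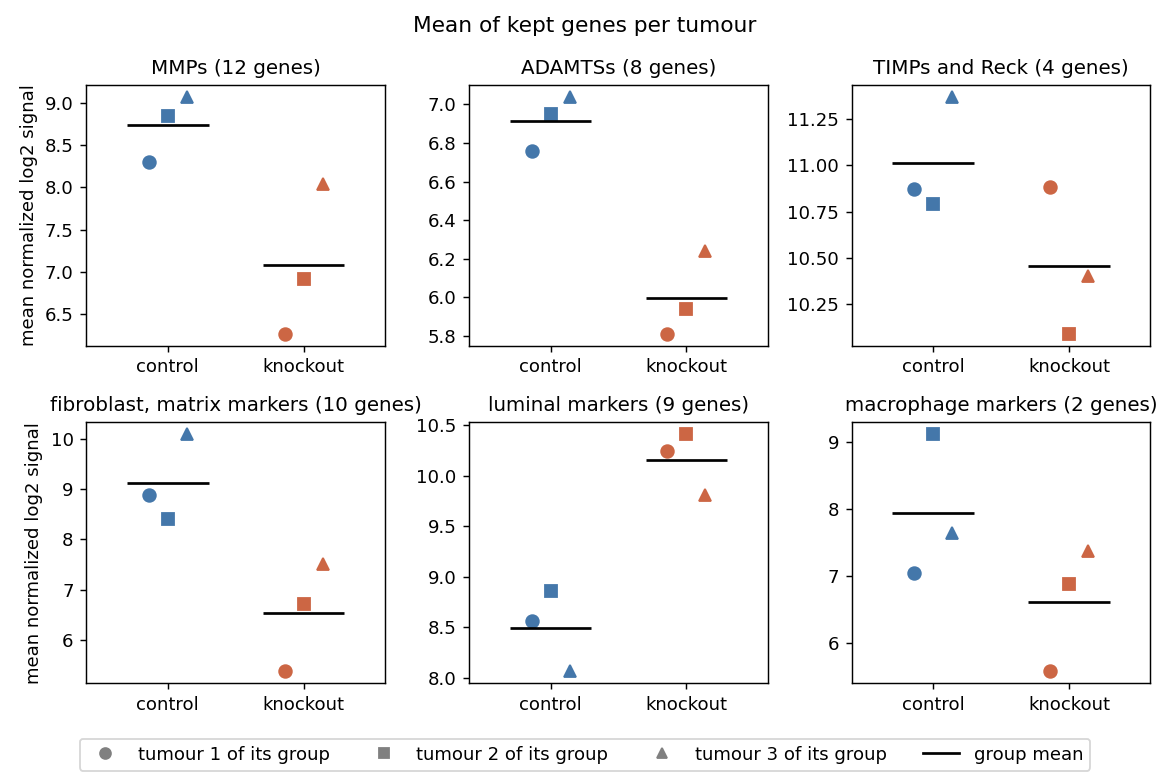
Mean normalized log2 signal per tumour (vertical axes, each panel with its own scale) over the kept genes of 3 member families and of 3 marker lists, with the group mean as a line. MMPs and fibroblast markers are lower in every knockout tumour, luminal markers are higher, and the TIMP and Reck panel overlaps.

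Genes that work with the metalloproteinases went both ways. To set beside the counts of this and the next lists, 4.47% of all kept genes were called higher and 5.63% lower. Of 15 kept activators, partners and clearance factors, 3 rose, 1 fell and 11 were not called (median log2 difference 0.24). Papln, a matrix protein related to the ADAMTS-like proteins, had log2 signals of 6.35, 6.48 and 5.73 in the control and of 9.17, 9.34 and 8.64 in the knockout tumours. The groups lay more than 2 log2 units apart, and Papln rose by 2.86 ± 0.28 (SE, adjusted p = 0.0032). Tspan33 and Tspan14, tetraspanins that escort Adam10 to the cell surface, rose by 2.64 ± 0.46 and 1.18 ± 0.27 log2 units (SE, adjusted p = 0.014 and 0.035), with Tspan33 above background on 1 of 3 control arrays. Plat, a plasminogen activator, fell, with a log2 difference of -2.82 ± 0.47 (SE, adjusted p = 0.012). The escorts of Adam17, Rhbdf1 (0.79, adjusted p = 0.12) and Rhbdf2 (1.01, adjusted p = 0.25), were not called, nor was the proenzyme-cutting protease Furin (-0.05, adjusted p = 0.92).

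Among 8 kept genes of astacins and other extracellular metalloproteinases, 2 rose and 2 fell (median log2 difference -0.81). The membrane peptidases Mme and Anpep rose by 2.51 ± 0.39 and 2.82 ± 0.71 log2 units (SE, adjusted p = 0.0097 and 0.047), with Anpep above background on 2 of 3 control arrays. Pcolce and Pcolce2 enhance the trimming of procollagen by Bmp1. Pcolce fell by 3.91 on the log2 scale (adjusted p = 0.0095). Pcolce2, above background on 3 of 3 control and 0 of 3 knockout arrays, was at least 2.56-fold lower (adjusted p = 0.026). It passed the filter through the control tumours alone, so its p is a description, as for Mmp17. Bmp1 itself gave -0.80 (adjusted p = 0.19). Of 11 kept genes on a list of matrix substrates of MMPs and ADAMTS enzymes, 8 fell and 0 rose (median log2 difference -2.20). The called genes of smallest p were Col3a1, Bgn, Tnc, Lama1, Col1a1 and Col4a1. Of these, Lama1 was above background on 0 of 3 knockout arrays and was at least 2.54-fold lower. Lama1 too passed the filter through the control tumours alone, so its call is a description. Col1a1, Col1a2, Col3a1 and Dcn of this list are also among the fibroblast and matrix markers above. Col2a1, a collagen gene counted with cartilage markers and not on this list, rose (log2 difference 3.58, adjusted p = 0.0031). Of 17 kept substrates that ADAMs shed, 1 rose, 2 fell and 14 were not called (median 0.31). The rise was that of Cdh1, and the falls those of Nrg1, a ligand of ErbB receptors (log2 difference -2.42, adjusted p = 0.0021), and Vcam1, an adhesion molecule of vessels and stroma (-2.79, adjusted p = 0.034). The count of called genes over these lists was 19, and it was 5 without control 1, 8 without control 3, 8 without knockout 2 and 10 without control 2.

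The remaining members gave no direction. Of the 79 genes, 47 had no kept probe, and 27 of these were above background on no array by any probe. Besides those named above, Adamts8, Adamts10, Adamts13, Adamts19, Adamtsl1, Adamtsl2 and Mmp21 were among the 27. The other 20 were above background on 1 or 2 arrays of a probe, among them Mmp7, Mmp16, Mmp19, Mmp20, Mmp28, Adamts15, Adamts17 and Adamts20. Of the member probes 26.9% were kept, where 35.1% of all probes were. A level that is not above background on this array does not show that a gene was silent.

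The scale of the values bears on the size of these changes. With the authors' values, the log2 difference was -1.42 for Adam23, -1.82 for Adamts12, -1.20 for Mmp23, -0.55 for Mmp24, -0.48 for Mmp17 and -0.39 for Adamts6, each more than 1.5 times smaller than above. The bounds for Mmp17 and Adamts6 were computed with the background correction used here. For Mmp2, Timp1 and Adam17 it was -2.47, -2.45 and 0.56.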

How the data were processed

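Total RNA of 6 breast tumours was labelled with biotin and hybridised to Illumina mouse bead arrays, per the labels' protocols. For each probe on each array, the authors deposited a raw signal intensity and a detection p-value, per the file headers; 4 broken lines of 2 probes were left out, and the other content in the affected detection column with them. The authors also deposited normalized log2 values, with medians of 7.40 to 7.41; lumi 2.6.0 is named in the submitters' processing notes, while scaling and centring remain unknown.

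neqc of limma 3.58.1 (R 4.3.3, offset 16) was used for background correction, quantile normalization and the log2 scale, and it inferred the background from the detection p-values. The floor of probes above background was 4.90 to 5.00. Folds of genes with no probe above background in a whole group are lower bounds, taken against the higher of that floor and the probe's value per array. The difference, knockout minus control, was tested two-sided in limma (lmFit, eBayes) for each of 15885 kept probes, and a probe was called at a Benjamini-Hochberg adjusted p below 0.05. The number of arrays limits the precision.

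Symbols came from the platform annotation (34883 probes with 1 symbol, 18 with several, 10378 unnamed here) and were checked by gene number against GRCm38.p6, where 34805 matched and 0 changed. Promoters came from RefSeq for 49 of 79 members. Overlapping and neighbouring genes came from the same gene table. Values per tumour are given for called members, the inhibitors, Mmp2, Mmp3, Mmp9, Mmp13, Mmp14, Adam17, Adamts1 and the member of smallest p in each role group. The values of Adam12, Adam15, Mmp11, Mmp12, Lyz2, Csf1r, Col2a1, Notch3 and the overlapping genes were chosen after they were seen. The members and lists were chosen with earlier results of these data known.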

Additional observations from a re-analysis of the deposited data

How the results depend on the processing

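Results were recomputed with an offset of 50, without background correction, with cyclic loess, with the authors' values, without the filter or with a stricter one (detection p below 0.01), with array weights, with a replicate block, with the probe of smallest p and without each tumour. All 9 called members kept their direction under every one that gave a value. With the authors' values the count of called member probes was 6, the median log2 difference of members -0.41 and the count of called related genes 11; without background correction the median was -0.62. Without the filter, 723 probes in all, 4 member probes, 4 member genes and 3 related genes were called, and the median was -0.09 over 79 genes, where dim probes lie at the floor. Leaving out 1 tumour gave 476 to 1564 called probes, 3 to 10 member probes, 3 to 9 member genes, medians of -0.99 to -0.64 and 5 to 20 related genes. Small differences turned sign then: they ran from -0.51 to 0.22 for Adamts1, -0.47 to 0.44 for Reck, -0.31 to 0.84 for Timp2, -0.61 to 0.39 for Timp3 and -2.21 to 0.14 for Mmp13. With array weights Reck gave 0.04 and Timp3 -0.24; the cause was not tested. The labels do not say whether same-numbered tumours belong together. Correlations of deviations were 0.23, 0.09 and 0.06 for same-numbered tumours and -0.20 to 0.08 for the other pairs of a control and a knockout tumour. With the replicate block, 1381 probes and 10 member genes were called, the calls of Adam17, Adamts12 and Mmp24 were lost, and Adam12, Mmp3, Mmp9 and Mmp10 were gained. Where knockout signals lay near background, as for Mmp17, Adamts6 and Adam23, the size of the fall was limited by it.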
